A study of Homo sapiens with 16 samples.

Results

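The RNA methyltransferase genes described here were chosen by name. They are the protein-coding genes whose symbols begin with METTL, TRMT, NSUN, FTSJ, CMTR or TRDMT, together with RNMT, RAMAC, WTAP, DIMT1, EMG1, MRM2, MRM3, TFB1M, TFB2M, ZCCHC4 and HENMT1. The rule found 65 genes among the 62069 gene identifiers in the count table. It used no measured value, but members were chosen with earlier results of these data known. MRM1 also belongs to the rule but its identifier was not matched and it is not analysed here. The 21 pseudogenes and 2 non-coding loci with matching names were left out. The names do not guarantee the activity: 9 of the 65 are known to act on proteins or small molecules, and 6 have no substrate assigned here, which leaves 50 that act on RNA or belong to a complex that does.

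RNA methyltransferases transfer a methyl group from S-adenosylmethionine to a base or a ribose of an RNA, which leaves S-adenosylhomocysteine. That product inhibits many of these enzymes until AHCY hydrolyses it. The marks they lay down serve the cap and the body of messenger RNA, the folding and decoding of transfer RNA, and the assembly of cytosolic and mitochondrial ribosomes.

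Gene-level RNA-seq counts came from IMR90 ER:RAS cells, human lung fibroblasts that carry a RAS protein fused to the oestrogen receptor. The fusion becomes active when 4-hydroxytamoxifen (4OHT, 100 nM) is added, and lasting RAS activity drives these cells into senescence. Every library came from cells at passage 15 and day 6, and each of the 4 groups held 4 libraries. EV (replicates 49 to 52) is the empty vector in non-senescent cells, and EV_4OHT (53 to 56) is the same vector with RAS switched on. In shAHCY_2 (57 to 60) and shAHCY_4 (61 to 64), RAS was switched on in cells that carried a short hairpin RNA against AHCY. All groups share the ER:RAS line. The design includes no hairpin without 4OHT and no 4OHT on cells lacking the fusion, so 4OHT and RAS cannot be told apart. It also includes no non-targeting hairpin, so loss of AHCY cannot be told apart from carrying a hairpin. Whether replicates are separate cultures is not labelled; the p-values below rest on library-to-library spread alone and may reflect technical variation.

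Library depth ran from 8236199 to 18235787 counts. The AHCY level was 114 ± 11.3 CPM (counts relative to the library total scaled by TMM factors; mean ± SD, n = 4) in EV and 164 ± 8.08 in EV_4OHT, against 18.5 ± 4.54 in shAHCY_2 and 14.7 ± 2.19 in shAHCY_4, so the labelled knockdown was present in all 8 hairpin libraries. The summed level of 8 fibroblast markers ran from 1.06e+04 to 1.23e+04 CPM in EV and from 4.74e+03 to 5.37e+03 CPM in the groups given 4OHT. That of 6 epithelial markers stayed at or below 103 CPM with SFTPC at 0, and those of the endothelial and leukocyte lists stayed at or below 2 CPM, with PECAM1, CDH5 and CD3E at 0. The 8 proliferation markers summed to 937 to 1.09e+03 CPM in EV, 195 to 218 in EV_4OHT, 400 to 450 in shAHCY_2 and 375 to 418 in shAHCY_4. They differ between the groups in the senescence comparison and in both comparisons with EV_4OHT, while the ranges of the hairpin groups overlap, and their part in the results was not tested. The single fibroblast markers were split (not tested). COL1A1, COL1A2, COL3A1, PDGFRB, THY1 and DCN were lower in EV_4OHT than in EV without overlap. COL1A1 was at 3279 to 4096 CPM in EV and 1108 to 1221 in EV_4OHT. VIM (1960 to 2051 and 1971 to 2054 CPM) and PDGFRA (93.6 to 98.2 and 88.4 to 106 CPM) overlapped between these groups. VIM was at 1674 to 1810 CPM in shAHCY_4. In bulk RNA, fewer cells of a type and less RNA per cell cannot be told apart. Libraries EV 51 and shAHCY_2 59 stood apart: the deviation of genes from their mean over all libraries fell with GC content, with a Spearman rho across genes of -0.266 and -0.535. In shAHCY_4 62 and 63 it rose with GC content, with a rho of 0.281 and 0.227. Counts below are also given without EV 51 and shAHCY_2 59 where that matters.

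Of the 65 genes, 62 passed the filter on low counts. METTL24 had no count in any library, which allows a level of up to 0.0138 CPM over all 16 libraries (3 counts, counting error only). METTL21C, a muscle enzyme, had 10 counts in 5 libraries and NSUN7 had 25 counts in 10 libraries. For 21 of the 65, exons are shared with a gene on the opposite strand, and since the library method does not mark strand, reads of those exons cannot be told apart. METTL1, METTL25, RAMAC, RNMT, TFB1M and TRMT112 are among them, and the values of their overlapping genes are not given below. TRMT9B passed through EV alone, so its lower level elsewhere was bound to appear. Per kilobase of its longest transcript, TRMT112, the shared activating partner of several tRNA and rRNA methyltransferases, was the most abundant member in EV at 135 CPM per kb, ahead of METTL5 at 63.8 and METTL26 at 42.1. METTL3 stood at 20.9, METTL14 at 4.57 and the lowest tested member, TRMT9B, at 0.145 CPM per kb. The summed level of all members was 2122 ± 70.7 CPM in EV, 2506 ± 27.3 in EV_4OHT, 2675 ± 133 in shAHCY_2 and 2652 ± 16.5 in shAHCY_4 (not tested).

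With RAS switched on, 19 of the 62 members rose and 11 fell (edgeR's quasi-likelihood test, two-sided, Benjamini-Hochberg adjusted over 13526 genes, adjusted p under 0.05). The called share was 48.4% (30.6% higher, 17.7% lower), against 53.5% of all genes tested (26.7% higher, 26.8% lower). Counted in either direction, the share was near the background. By direction, the higher share lay slightly above its background and the lower share below it, and this difference was not tested. The median log2 change was 0.07, against -0.02 over all genes, and members ran from -1.73 to 0.85. Without TRMT9B, whose direction the filter fixed, 10 of 61 members fell, 47.5% were called and the lowest log2 change was -1.47. When libraries were scaled by their totals alone, which moved the median of all genes to -0.13, 17 members were higher and 18 lower. Those shares were 27.4% and 29%, beside 20.7% and 33.5% of all genes. The role groups are described in turn, and the plot of log2 changes by role shows all 62.

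**Figure D1:**
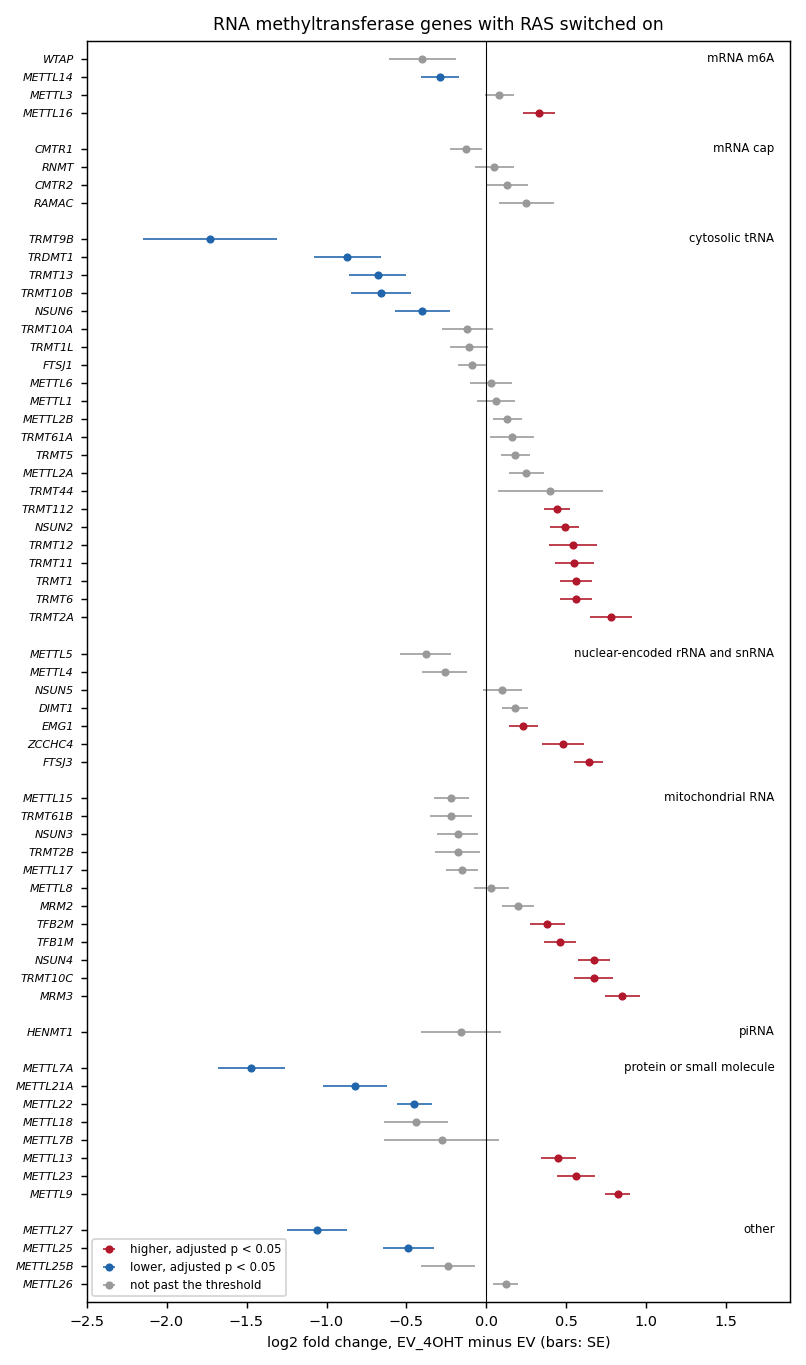
Log2 fold change of each tested RNA methyltransferase gene in EV_4OHT minus EV, grouped by substrate, with bars for the standard error from the edgeR fit over 4 libraries a group. Red points are higher and blue points lower at an adjusted p under 0.05; the 5 called mitochondrial members lie on the right and the 5 called cytosolic tRNA members that fell lie on the left.

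The mitochondrial group gave 5 increases and no decrease among 12 members. That was 41.7% called, below the 53.5% of all genes tested (26.7% higher, 26.8% lower). MRM3, which methylates a ribose of the large mitochondrial rRNA, was at 24.7, 20.8, 19.1 and 19.8 CPM in EV and at 37.4, 37.9, 37.2 and 39.0 CPM in EV_4OHT. The groups did not overlap, and the rise was 0.85 ± 0.11 on the log2 scale (± SE, adjusted p = 1.3e-06). MRM3 shares exons with GLOD4 on the opposite strand, at a mean of 93.8 CPM over all libraries. The log2 change of GLOD4 was 0.11 ± 0.08 (adjusted p = 0.24). NSUN4, which methylates the small mitochondrial rRNA and takes part in assembling the mitochondrial ribosome, was at 23.6, 22.7, 21.7 and 28.2 CPM in EV and at 34.4, 35.0, 41.8 and 42.0 CPM in EV_4OHT. Its lowest library with RAS on lay above its highest without, with a log2 change of 0.67 ± 0.10 (adjusted p = 1.1e-05). TRMT10C, the methyltransferase subunit of mitochondrial RNase P, was at 51.8, 57.8, 74.2 and 52.8 CPM in EV and at 84.5, 99.8, 91.0 and 102 CPM in EV_4OHT. Again every library with RAS on was higher, by 0.67 ± 0.12 (adjusted p = 8.7e-05).

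The other called mitochondrial members, chosen here after their values were seen, were TFB1M, which dimethylates the small mitochondrial rRNA (log2 0.46 ± 0.10, adjusted p = 0.00074), and TFB2M, which initiates mitochondrial transcription (log2 0.38 ± 0.11, adjusted p = 0.0078). The TFB2M call was lost when EV replicate 49 was left out. HSD17B10, the dehydrogenase subunit of the same RNase P, rose by 0.68 ± 0.08 (adjusted p = 1.9e-07). Its nuclease PRORP was at a log2 change of 0.23 ± 0.41 (adjusted p = 0.66). PRORP was scarce, at 0.764 ± 0.273 CPM in EV and 0.887 ± 0.489 in EV_4OHT. With 2 to 19 counts a library, a change like that of HSD17B10 could have been missed. MTERF4, the partner of NSUN4, rose by 0.41 ± 0.08 (adjusted p = 0.00022). The group was not uniform: METTL15, which methylates the small mitochondrial rRNA, had a log2 change of -0.22 ± 0.11 (adjusted p = 0.099), and the median over the 12 was 0.11.

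**Figure D2:**
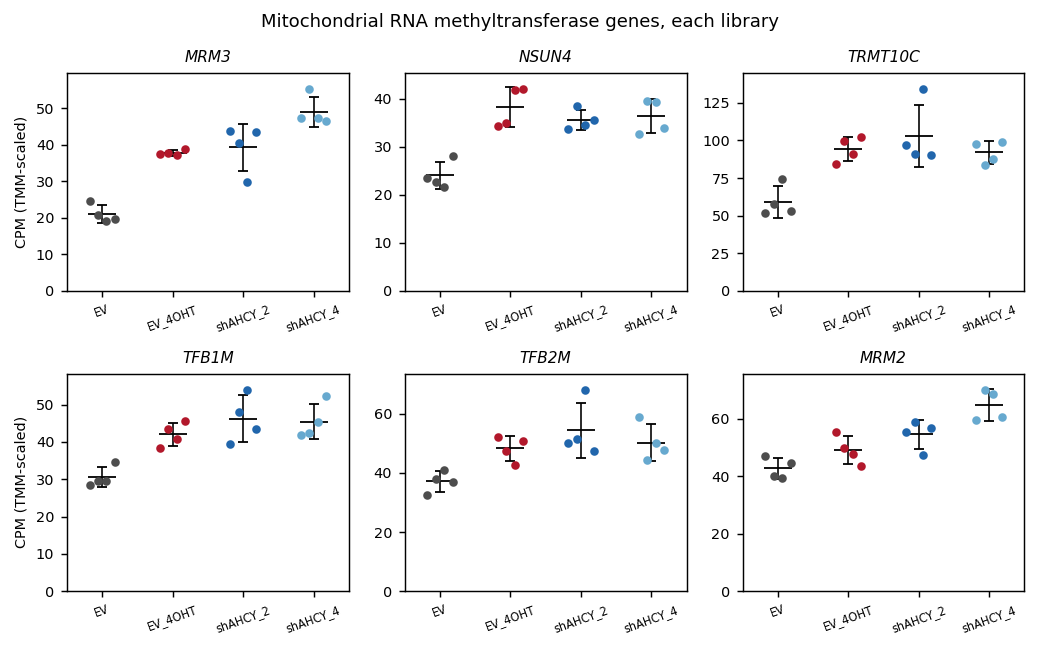
TMM-scaled CPM of 6 mitochondrial members in each library of the 4 groups; points are libraries, black bars the mean ± SD of 4, and the vertical axis starts at 0. MRM3, NSUN4, TRMT10C, TFB1M and TFB2M show EV below EV_4OHT without overlap, and MRM2 is highest in shAHCY_4.

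Cytosolic tRNA enzymes moved both ways, with 7 higher and 5 lower among 22, or 4 lower among 21 without TRMT9B. That was 54.5% called, or 52.4% without TRMT9B, near the 53.5% of all genes. TRMT2A, which makes methyluridine in tRNA, was at 41.2, 33.0, 26.0 and 34.7 CPM in EV and at 56.4, 57.7, 65.5 and 51.9 CPM in EV_4OHT, a log2 change of 0.78 ± 0.13 (adjusted p = 4.1e-05). TRMT1, which dimethylates a guanosine of many tRNAs, was at 44.8, 42.1, 33.1 and 43.7 CPM in EV and at 62.8, 57.5, 61.2 and 60.2 CPM in EV_4OHT (log2 0.56 ± 0.10, adjusted p = 6.6e-05). NSUN2, a methylcytosine writer for many tRNAs, was at 114, 91.7, 94.4 and 94.8 CPM in EV and at 145, 132, 140 and 138 CPM in EV_4OHT (log2 0.49 ± 0.09, adjusted p = 4.8e-05). None of these 3 overlapped between the groups. The transcript of TRMT2A shares exons with RANBP1 on the opposite strand, which fell by 0.32 ± 0.11 (adjusted p = 0.013).

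The tRNA members that fell were at or below 16.1 CPM in every library. TRDMT1, which methylates a cytosine in the aspartate tRNA, was at 9.89, 12.6, 12 and 7.81 CPM in EV and at 4.16, 5.97, 6.83 and 6.02 CPM in EV_4OHT, a log2 change of -0.87 ± 0.21 (adjusted p = 0.0012). TRMT13, a ribose methyltransferase of the acceptor stem, was at 10.7, 14, 16.1 and 11 CPM in EV and at 7.40, 9.11, 7.36 and 8.57 CPM in EV_4OHT (log2 -0.68 ± 0.18, adjusted p = 0.0028). TRMT10B, a paralog of TRMT10C that acts on cytosolic tRNA, was at 7.34, 6.49, 6.87 and 7.01 CPM in EV and at 4.90, 4.24, 4.42 and 3.99 CPM in EV_4OHT (log2 -0.66 ± 0.19, adjusted p = 0.0064). In all 3 the EV libraries lay above every EV_4OHT library. TRMT9B, related to the yeast wobble-uridine enzyme, went from 1.39 ± 0.101 to 0.401 ± 0.302 CPM (log2 -1.73 ± 0.42, adjusted p = 0.0013), which its passing the filter through EV fixed in direction. METTL1, the catalytic subunit of the tRNA methylguanosine writer, was at 19.7 ± 2.15 CPM in EV and 20.5 ± 2.04 in EV_4OHT (log2 0.06 ± 0.12, adjusted p = 0.72). Its scaffold WDR4 was at a log2 change of 0.16 ± 0.13 (adjusted p = 0.31).

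Among 7 members that act on cytosolic rRNA or spliceosomal RNA, 3 rose and none fell. The share called was 42.9%, below the 53.5% of all genes (26.7% higher, 26.8% lower). FTSJ3, a nucleolar ribose methyltransferase, was at 89.2, 78.6, 74.1 and 91.5 CPM in EV and at 136, 130, 130 and 124 CPM in EV_4OHT. Its ranges did not overlap (log2 0.64 ± 0.09, adjusted p = 4.6e-06). FTSJ3 shares exons with PSMC5 on the opposite strand, at a mean of 189 CPM over all libraries. The log2 change of PSMC5 was 0.01 ± 0.07 (adjusted p = 0.93). ZCCHC4, which puts m6A (N6-methyladenosine) on the large-subunit rRNA, was at 14.6, 10.4, 12.6 and 12.1 CPM in EV and at 18.4, 13.8, 16.9 and 20.2 CPM in EV_4OHT. Those ranges overlapped through one library of each group, and the change was 0.48 ± 0.13 (adjusted p = 0.0035). EMG1, which methylates a pseudouridine of the small-subunit rRNA, went from 18.1 ± 0.699 to 21.3 ± 1.32 CPM (log2 0.23 ± 0.09, adjusted p = 0.037), a call kept in 9 of 24 alternative analyses.

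METTL5, the small-subunit m6A writer, went the other way without passing the test, from 87.5 ± 17.2 to 67.1 ± 7.53 CPM (log2 -0.38 ± 0.16, adjusted p = 0.052). It passed in 11 of the 24 alternatives. METTL5 shares exons with SSB on the opposite strand, at a mean of 197 CPM over all libraries, whose log2 change was -0.17 ± 0.19 (adjusted p = 0.49). DIMT1, which dimethylates the small-subunit rRNA, was at a log2 change of 0.18 ± 0.08 (adjusted p = 0.069). NOP2, a large-subunit rRNA methylcytosine writer outside the rule, rose by 0.52 ± 0.10 (adjusted p = 0.00024).

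The 4 writers of mRNA m6A gave 1 increase and 1 decrease, or 50% called, beside 53.5% of all genes. METTL3, the catalytic subunit, was at 57.8, 53.4, 45.8 and 54.1 CPM in EV and at 58.6, 58.4, 51.9 and 54.7 CPM in EV_4OHT; the ranges overlapped and the log2 change of 0.08 had a 95% interval from -0.10 to 0.27 (adjusted p = 0.45). It shares exons with TOX4 on the opposite strand, at a mean of 128 CPM, whose log2 change was 0.11 ± 0.07 (adjusted p = 0.23). METTL14, its RNA-binding partner, was at 25.6, 31.6, 34.1 and 30.7 CPM in EV and at 23.1, 24.7, 24.2 and 28.0 CPM in EV_4OHT. It fell by 0.29 ± 0.12 (adjusted p = 0.044) with overlapping ranges, a call kept in 11 of 24 alternatives and lost by DESeq2. METTL16, the separate writer of U6 RNA and of the S-adenosylmethionine synthetase transcript, was at 21.2, 24.4, 23.4 and 24.0 CPM in EV and at 29.4, 26.8, 29.8 and 30.6 CPM in EV_4OHT. Those groups did not overlap (log2 0.33 ± 0.10, adjusted p = 0.0073), and the call was lost when libraries were scaled by totals alone.

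WTAP, the regulatory subunit that anchors METTL3 and METTL14, was at 90.5, 152, 191 and 98.1 CPM in EV and at 94.1, 91.3, 101 and 117 CPM in EV_4OHT. The EV libraries were split widely, and the log2 change of -0.40 ± 0.21 did not pass the test (adjusted p = 0.11). WTAP shares exons with SOD2 on the opposite strand, at a mean of 193 CPM, whose log2 change was 0.08 ± 0.11 (adjusted p = 0.54). Of the complex's other subunits, ZC3H13, which holds WTAP in the nucleus, fell by 0.66 ± 0.10 (adjusted p = 1.1e-05), from 55.9 ± 2.83 to 35.5 ± 1.79 CPM. RBM15, which recruits the complex to RNA, rose by 0.46 ± 0.14 (adjusted p = 0.0075), and CBLL1 rose by 0.23 ± 0.09 (adjusted p = 0.030), a call kept in 14 of 24 alternatives. VIRMA was at a log2 change of -0.18 ± 0.09 (adjusted p = 0.11). RBM15B had no count in any library under its matched identifier, which may be a difference of identifiers, and was not tested. Of the demethylases, ALKBH5 rose by 0.51 ± 0.09 (adjusted p = 4.7e-05) and FTO fell by 0.23 ± 0.09 (adjusted p = 0.033), the latter kept in 19 of 24 alternatives.

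Of 11 m6A readers, 3 rose and 3 fell, or 54.5% called, near the 53.5% of all genes. IGF2BP1, which stabilises its targets, rose by 0.77 ± 0.10 (adjusted p = 5.8e-07). HNRNPA2B1 fell by 0.78 ± 0.12 (adjusted p = 1.6e-05) and RBMX by 0.74 ± 0.08 (adjusted p = 1.2e-07). Over all 39 genes of the related lists, of which 38 were tested, 12 rose and 7 fell, or 50%, beside the 53.5% of all genes.

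The 4 genes of cap methylation did not pass the test in either direction, beside 53.5% of all genes called. RNMT, the cap guanine methyltransferase, was at 40.0 ± 5.43 CPM in EV and 41.5 ± 4.14 in EV_4OHT (log2 0.05, 95% interval -0.19 to 0.30, adjusted p = 0.73). CMTR1, which methylates the ribose of the first transcribed nucleotide, was at 52.4 ± 6.01 and 47.8 ± 4.78 CPM (log2 -0.13, 95% interval -0.34 to 0.08, adjusted p = 0.29). DESeq2 called neither gene. CMTR1 passed as lower in 2 of the 24 alternatives, with the GC trend removed and without EV 51 and shAHCY_2 59. RAMAC, the activating subunit of RNMT, passed as higher in 4 of the 24, and CMTR2, which methylates the ribose of the second nucleotide, in 2. Outside the rule, PCIF1, which adds m6A next to the cap, fell by 0.86 ± 0.12 (adjusted p = 2.7e-06), from 34.2 ± 3.53 to 18.8 ± 1.35 CPM.

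Members of the METTL family that act on proteins or small molecules held some of the widest changes, with 3 higher and 3 lower among 8 tested. The share called in this small group was 75%, beside 53.5% of all genes. METTL9, a protein histidine methyltransferase, was at 141, 140, 143 and 148 CPM in EV and at 244, 258, 259 and 253 CPM in EV_4OHT, the smallest adjusted p of any member (log2 0.82 ± 0.08, adjusted p = 6.5e-09). METTL23, an arginine methyltransferase, rose by 0.56 ± 0.12 (adjusted p = 0.00030), from 34.8 ± 3.14 to 51.3 ± 2.61 CPM. METTL7A, a thiol methyltransferase, was at 5.35, 6.69, 5.50 and 6.76 CPM in EV and at 2.66, 2.04, 2.41 and 1.65 CPM in EV_4OHT (log2 -1.47 ± 0.21, adjusted p = 4.4e-06). Both METTL9 and METTL7A separated the groups completely.

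METTL21A, which methylates a lysine of heat-shock chaperones, fell by 0.82 ± 0.20 (adjusted p = 0.0012), and its ranges overlapped because EV_4OHT 56 stood at 9.48 CPM against 4.69 to 5.32 in the other 3. Among members without an assigned substrate, METTL27 fell by 1.06 ± 0.19 (adjusted p = 5.3e-05) and METTL25 by 0.49 ± 0.16 (adjusted p = 0.014). The METTL25 call was lost without EV_4OHT replicate 54.

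**Figure D3:**
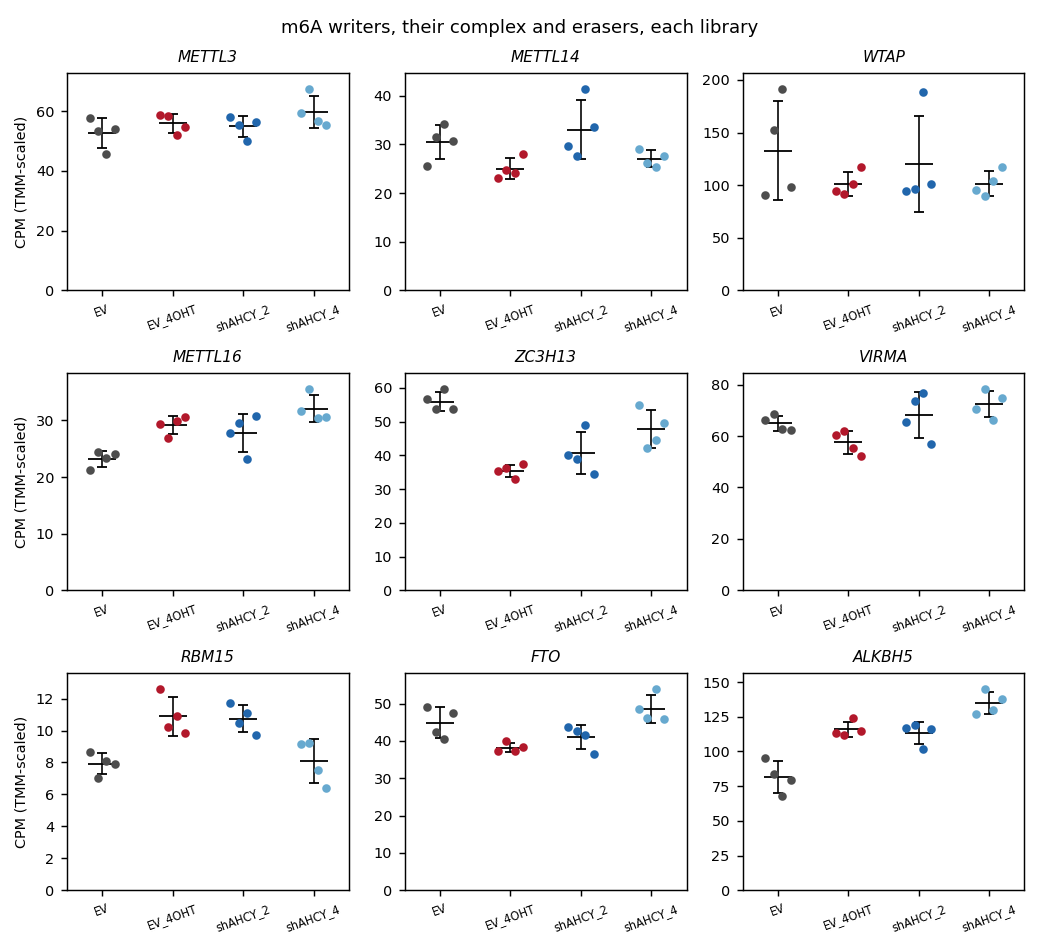
TMM-scaled CPM of the m6A writers METTL3, METTL14, WTAP and METTL16, the complex subunits ZC3H13, VIRMA and RBM15 and the demethylases FTO and ALKBH5 in each library; points are libraries, black bars the mean ± SD of 4, and each vertical axis starts at 0. METTL3 overlaps in all groups, and single libraries EV 51 and shAHCY_2 59 reach 191 and 188 CPM for WTAP.

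To show what the members' start regions share, RefSeq sequences (GRCh38.p14) of the 250 bases before the gene start were searched on both strands. They were found for 54 of the 65 members. The ETS-family core CCGGAAG (or CTTCCGG) was present in 17 of the 54, or 31.5%, against 16.3% of the windows of 10343 tested genes and 8.82% of all 27305 windows. By senescence call it was present in 6 of 16 members that rose, 3 of 8 that fell and 8 of 27 that passed in neither direction. The 54 also include METTL21C, METTL24 and NSUN7, which were not tested and did not hold this core. The NRF1 core, a palindrome, was present in 1 member (1.85%, against 1.99% of tested genes), the MYC E-box CACGTG in 1 (1.85%, against 8.96%) and the E2F core TTTCCCGC in 2 (3.70%, against 2.20%). A match describes letters only. The stretches below show the core nearest the gene start, with 10 bases on either side where the window allows, for members that rose (EMG1, TFB1M, TRMT10C, TRMT11, TRMT112 and TRMT6), members that fell (METTL14, NSUN6 and TRMT13) and METTL3; capitals mark the core, and each is written on the gene's own strand.
EMG1, chr12:6970895-6970912, plus strand: gttagcgcaaCTTCCGGt
TFB1M, chr6:155314553-155314579, minus strand: gcggtcatcgCTTCCGGtgggataggt
TRMT10C, chr3:101561830-101561856, plus strand: gagggcggaaCTTCCGGctgagcccca
TRMT11, chr6:125986442-125986468, plus strand: agagcttccgCTTCCGGcccttcaggc
TRMT112, chr11:64318049-64318075, minus strand: cagaacagagCTTCCGGgacccacgcc
TRMT6, chr20:5950561-5950587, minus strand: cgagaggcttCCGGAAGcggtcttgag
METTL14, chr4:118685346-118685372, plus strand: ggaggcgggaCTTCCGGgccaagcgag
NSUN6, chr10:18659295-18659321, minus strand: ccacccatcgCCGGAAGctaggcgcgt
TRMT13, chr1:100133138-100133162, plus strand: atgctggacaCCGGAAGcgagccct
METTL3, chr14:21511454-21511480, minus strand: ctcactgtgtCCGGAAGcatgagagag

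With AHCY knocked down, few members changed. The hairpin groups are both compared with the same EV_4OHT libraries, so their values are not independent and are given side by side. Against EV_4OHT, shAHCY_2 had 2 members higher (3.23%) and none lower, beside 6.98% of all genes called (3.91% higher, 3.07% lower). For shAHCY_4 it was 5 higher (8.06%) and none lower, beside 14.4% (7.58% higher, 6.86% lower). Counted in either direction, both shares lay below the background. Counted as higher alone, each was near its background, and that for shAHCY_4 was slightly above it. The median log2 change of members was 0.09 with each hairpin, against 0.01 over all genes. Beside the counts of 0, no member was lower at an unadjusted p under 0.05 with shAHCY_2 and 2 were with shAHCY_4. The share of all genes at that unadjusted threshold is not given here. DESeq2 called none lower, beside 5.08% and 8.13% of all genes. It gave 3 (4.92%) and 5 (8.06%) higher, beside 5.74% and 8.7% of all genes.

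EMG1 was the member called with both hairpins. It was at 21.3, 23.1, 20 and 20.9 CPM in EV_4OHT, at 27.6, 27.5, 25.0 and 30.4 CPM in shAHCY_2 and at 25.2, 26.0, 28.1 and 25.8 CPM in shAHCY_4. All 8 hairpin libraries lay above all 4 EV_4OHT libraries. The log2 changes were 0.38 ± 0.09 (adjusted p = 0.012) and 0.30 ± 0.09 (adjusted p = 0.028). The first call was kept in 23 of 24 alternatives and lost with no low-count filter. The second was kept in 18 of 24 and lost with no low-count filter and without EV_4OHT 53, 55 or 56 or shAHCY_4 62 or 63. EMG1 shares exons with LPCAT3 on the opposite strand, whose changes were 0.10 ± 0.11 (adjusted p = 0.66) and 0.30 ± 0.11 (adjusted p = 0.077). It also shares exons with C1S on its own strand, which stood at a mean of 106 CPM over all libraries against 23.3 for EMG1. C1S fell by 1.02 ± 0.09 in senescence (adjusted p = 1.1e-09), and its changes with the hairpins were -0.13 ± 0.09 (adjusted p = 0.40) and -0.22 ± 0.09 (adjusted p = 0.096).

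METTL14 was the second member called with shAHCY_2. It was at 23.1, 24.7, 24.2 and 28.0 CPM in EV_4OHT and at 29.6, 27.7, 41.3 and 33.5 CPM in shAHCY_2, with overlapping ranges and the highest value in library 59 (log2 0.40 ± 0.12, adjusted p = 0.044). Without shAHCY_2 replicate 59 the call was lost, and it was kept in 11 of 24 alternatives. With shAHCY_4 the METTL14 change was 0.11 ± 0.12 (adjusted p = 0.60). Leaving out EV 50 or 52, EV_4OHT 53, 54 or 55, or shAHCY_4 61, 62, 63 or 64 lowered the count for shAHCY_2 to 1. The share of all genes called in those fits is not given here.

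With shAHCY_4, 3 of the 5 members called were mitochondrial, or 25% of the 12 in that group. Of all genes, 14.4% were called (7.58% higher, 6.86% lower), and whether the group differs from them was not tested. MRM2, which methylates a ribose of the large mitochondrial rRNA, was at 55.3, 49.7, 47.8 and 43.5 CPM in EV_4OHT and at 59.5, 70.1, 68.7 and 60.7 CPM in shAHCY_4, without overlap (log2 0.40 ± 0.09, adjusted p = 0.0059). MRM3 was at 37.4, 37.9, 37.2 and 39.0 CPM in EV_4OHT and at 47.3, 55.2, 47.3 and 46.4 CPM in shAHCY_4 (log2 0.37 ± 0.11, adjusted p = 0.025). METTL15 was at 15.7, 15.0, 17.3 and 17.7 CPM in EV_4OHT and at 23.5, 22.5, 22.6 and 18.4 CPM in shAHCY_4 (log2 0.40 ± 0.11, adjusted p = 0.018). MRM3 and METTL15 did not overlap between the groups either. GLOD4, which shares exons with MRM3, was at a log2 change of 0.18 ± 0.08 with shAHCY_4 (adjusted p = 0.13).

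METTL15 shares exons with KIF18A, a mitotic kinesin on the opposite strand. KIF18A fell by 2.78 ± 0.15 in senescence (adjusted p = 5.5e-13) and was higher by 0.93 ± 0.16 with shAHCY_2 (adjusted p = 0.00062) and by 1.06 ± 0.16 with shAHCY_4 (adjusted p = 7.4e-05). Since strand is not marked, the METTL15 and KIF18A reads of the shared exons cannot be told apart.

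METTL9 was at 244, 258, 259 and 253 CPM in EV_4OHT, at 261, 272, 333 and 291 CPM in shAHCY_2 and at 339, 317, 284 and 338 CPM in shAHCY_4. Each hairpin group lay above EV_4OHT, with a log2 change of 0.19 ± 0.08 for shAHCY_2 (adjusted p = 0.14) and 0.33 ± 0.08 for shAHCY_4 (adjusted p = 0.0049). METTL9 and MRM2 kept their calls in all 24 alternatives. The count of 5 fell to 2 without EV_4OHT 53 or shAHCY_4 62, and to 3 without EV_4OHT 54, 55 or 56 or shAHCY_4 63. The share of all genes called in those fits is not given, so whether the fall is particular to members was not tested. Without EV 51 and shAHCY_2 59 the count was 9 higher and 1 lower, or 16.1% of members. Of all genes, 22.4% were called there (12.2% higher, 10.2% lower). With the GC trend of each library removed the count was 8 higher and 1 lower, or 14.5% beside 21.7% (11.6% higher, 10.1% lower).

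**Figure D4:**
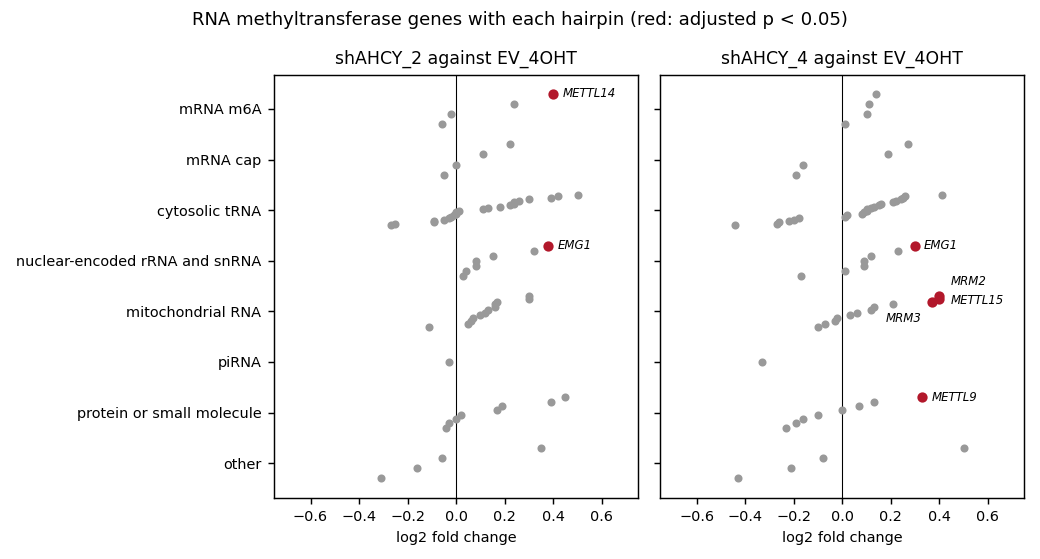
Log2 fold change of each tested RNA methyltransferase gene against EV_4OHT, by substrate group, for shAHCY_2 (left) and shAHCY_4 (right); vertical spread within a group only separates points. Red, named points passed an adjusted p under 0.05: METTL14 and EMG1 on the left, and EMG1, MRM2, METTL15, MRM3 and METTL9 on the right.

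The core m6A writer METTL3 was at 55.9 ± 3.22 CPM in EV_4OHT, 54.9 ± 3.43 in shAHCY_2 and 59.7 ± 5.26 in shAHCY_4. Its 95% intervals ran from -0.21 to 0.16 and from -0.09 to 0.28 on the log2 scale (adjusted p = 0.90 and 0.53). METTL16 had intervals of -0.27 to 0.14 and -0.07 to 0.34 (adjusted p = 0.75 and 0.40), and NSUN2 of -0.18 to 0.18 and -0.02 to 0.33 (adjusted p = 0.99 and 0.25). WTAP ranged from 94.0 to 188 CPM in shAHCY_2, where library 59 held the highest value, and was at 101 ± 11.7 CPM in shAHCY_4 (adjusted p = 0.53 and 0.99). SOD2, which shares its exons, fell by 0.48 ± 0.11 with shAHCY_2 (adjusted p = 0.0083), and its change with shAHCY_4 was -0.28 ± 0.11 (adjusted p = 0.093). The cap enzymes RNMT and CMTR1 did not pass with either hairpin (adjusted p = 0.30 and 0.32 for RNMT, 0.99 and 0.083 for CMTR1). CMTR1 passed with shAHCY_4 in 5 of the 24 alternatives, among them the one without EV replicate 51.

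The related genes gave 1 increase of 38 with shAHCY_2, or 2.63% beside the 6.98% of all genes. It was the reader RBMX, which was higher by 0.44 ± 0.08 (adjusted p = 0.0016). With shAHCY_4, 9 rose and 2 fell of 38, or 28.9%, beside the 14.4% of all genes. They included ZC3H13, which rose by 0.43 ± 0.10 (adjusted p = 0.0071), VIRMA, the scaffold of the m6A complex, by 0.34 ± 0.09 (adjusted p = 0.018), and FTO by 0.35 ± 0.09 (adjusted p = 0.011). RBM15 fell by 0.44 ± 0.14 (adjusted p = 0.037, kept in 17 of 24 alternatives) and IGF2BP3 by 0.39 ± 0.09 (adjusted p = 0.0049). ZC3H13 and IGF2BP3 kept these calls in all 24 alternatives; VIRMA lost it without EV_4OHT 56 or shAHCY_4 62, and FTO without shAHCY_4 63.

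Between the hairpins, none of the 62 members differed in either direction, beside 1.24% of all genes (0.54% higher in shAHCY_4, 0.702% lower). At an unadjusted p under 0.05, 4 members were higher in shAHCY_4 and 5 lower. The share of all genes at that unadjusted threshold is not given here. DESeq2 called none of the members, beside 4.71% of all genes (2.47% higher, 2.24% lower). The difference (shAHCY_4 minus shAHCY_2) was -0.07 for EMG1, with a 95% interval from -0.26 to 0.12 (adjusted p = 0.71), and -0.28 for METTL14, from -0.53 to -0.04 (adjusted p = 0.21). MRM3 was 0.31 higher in shAHCY_4, with an interval from 0.09 to 0.54 (adjusted p = 0.14), and MRM2 was 0.25 higher, from 0.05 to 0.44 (adjusted p = 0.18). For these mitochondrial genes the groups did not overlap, although the adjusted test was not passed. So the members called with 1 hairpin alone were not shown to differ between the hairpins.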

How the data were processed

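The deposited table held gene-level counts, whole numbers that were not normalized, for 16 libraries and 62069 Ensembl identifiers. Per the labels' protocols, libraries were made by Smart-Seq2, which does not mark strand. Per the submitters' processing notes, CASAVA 1.8.2, TopHat2 2.0.11 and featureCounts 1.18.0 were used with hg19 or GRCh37; strand and multi-mapping settings: not given in the sources used here. METTL2A and METTL2B, and the pseudogene copies of NSUN5 and TRMT112, may therefore share reads.

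Symbols were matched for 50127 identifiers; the rest held 0.503% of counts. Roles were assigned by hand, and overlaps and lengths came from GENCODE 29. edgeR 4.0.16 in R 4.3.3 fitted one quasi-likelihood model to all libraries after filterByExpr and TMM, giving 13526 genes and a biological coefficient of variation of 11.9%. Standard errors are the absolute log2 change divided by the square root of F. The procedure was tested on simulated data. Members, lists and tests were chosen with earlier results of these data known. Named genes were AHCY, 13 fixed members, members called with a hairpin, the 8 largest changes per direction in senescence, and up to 4 per related list and comparison. TFB1M, TFB2M, KIF18A, RANBP1, LPCAT3, C1S, SSB, TOX4, SOD2, RAMAC, CMTR2 and members named for their level or shown by sequence were named after values were seen. So were GLOD4, PSMC5, RBM15B and the single fibroblast markers. Alternatives were RLE and no scaling factors, DESeq2 1.42.0, other filters, GC trend removal, only the groups compared and leaving out each library. Leaving out EV 51 and shAHCY_2 59, whose levels fell most with GC content, was chosen after seeing the data.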

Additional observations from a re-analysis of the deposited data

Results flagged for a closer look

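In groups of 4, a library was listed here when its gap to the nearest other, on the log2 CPM scale, was so large a share of the group's range that it passed Dixon's outlier test at the 95% level. The named members gave 120 groups and 10 such libraries; chance gives about 1 in 20 groups.

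Library shAHCY_2 59, whose levels fell most with GC content (Spearman rho -0.535), held 4 of them. WTAP was at 188 CPM there against 94.0 to 101 in the other 3, METTL5 at 128 against 66.9 to 73.6, and METTL23 at 67.6 against 44.9 to 48.1. TRMT1 was at 51.2 CPM there against 61.4 to 62.4. Library EV 51, with a rho of -0.266, held CMTR1 at 43.4 CPM against 54.8 to 56.3.

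The remaining 5 lay in other libraries. NSUN2 was at 114 CPM in EV 49 against 91.7 to 94.8. TRMT13 was at 6.11 CPM in shAHCY_2 57 against 10.8 to 12. In shAHCY_4, MRM3 was at 55.2 CPM in library 62, where levels rose with GC content (rho 0.281), against 46.4 to 47.3, ZCCHC4 at 20.7 in library 61 against 17.5 to 17.9, and METTL25 at 4.07 in library 63 against 5.16 to 5.24.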

How the results depend on the processing

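Over 24 alternatives, 23 of the 30 senescence calls were kept in all, TRMT9B was kept in the 23 in which it was tested, and EMG1, METTL14, METTL16, METTL25, NSUN6 and TFB2M lost theirs in at least 1. No called member changed sign. With library totals alone 18 members were lower in senescence instead of 11. That was 29% instead of 17.7%, beside 33.5% instead of 26.8% of all genes. For shAHCY_2, fitting only the groups compared gave 1 member higher (1.64%, beside 3.19% of all genes). For shAHCY_4, 8 were higher with library totals alone (12.9%, beside 10.7% of all genes). The same count was higher with the GC trend removed (12.9%, beside 11.6%) and with only the groups compared (13.1%, beside 12.4%). No low-count filter gave 3 higher (4.69%, beside 2.67%), and leaving out EV 51 and shAHCY_2 59 gave 9 (14.5%, beside 12.2%). Lower were 1 with the GC trend removed (1.61%, beside 10.1%) and 3 with only the groups compared (4.92%, beside 12.3%). Without EV 51 and shAHCY_2 59, 1 was lower (1.61%, beside 10.2%). Between the hairpins, removing the GC trend made METTL9 higher (1 member, or 1.61%, beside 2.43% of all genes). The cause of these moves was not tested.

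Leaving out 1 library gave 17 to 21 members higher and 8 to 15 lower in senescence, 1 to 3 higher and 0 lower for shAHCY_2, 2 to 6 higher and 0 to 1 lower for shAHCY_4, and 0 between the hairpins. The 1 lower member for shAHCY_4, without EV_4OHT 54, was METTL25. Shares of all genes called are not given for fits with 1 library left out, here or above. No paired analysis was possible because the replicate numbers, 49 to 64, are not shared between groups. Depth limits the rarest members: TRMT9B, METTL7B, HENMT1 and TRMT44 had group means from 0.289 to 2.07 CPM.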
